A study of Homo sapiens with 2 samples.

Results

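Peaks of the RNA-binding protein Musashi-2 (MSI2) were examined in 10 genes whose proteins build stress granules or belong to the fragile X family. They are G3BP1, G3BP2, CAPRIN1, FMR1, FXR1, FXR2, TIA1, TIAL1, YBX1 and LARP1, out of 8801 gene IDs with a peak in either list. All their peaks were taken by Ensembl gene ID, with no cutoff on a measured value. The genes themselves were chosen with earlier results of these data known. The peaks come from CLIP-seq of NB4, an established human line of acute promyelocytic leukaemia, in which ultraviolet light links proteins to the RNA they touch and an antibody then recovers one protein with its RNA. There was 1 group of 2 replicates, both of NB4 cells with no treatment named in the labels, each from 25000000 cells crosslinked at 400 mJ per square centimetre and precipitated with an Abcam antibody to MSI2. The labels do not say that the replicates came from separate cultures, so differences between them may be technical. Neither input RNA nor a control antibody nor cells lacking MSI2 were analysed here, so MSI2 binding and repeatable background cannot be told apart. RNA levels were not analysed here either, so a well-bound and an abundant transcript cannot be told apart.

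Stress granules are cytoplasmic bodies in which mRNAs stalled in translation gather with RNA-binding proteins when a cell is stressed. G3BP1 and its paralog G3BP2 are scaffolds on which the granules assemble, and CAPRIN1 is their binding partner. FMR1 encodes FMRP, a repressor of translation lost in fragile X syndrome, and FXR1 and FXR2 are its paralogs. TIA1 and TIAL1 bind uridine-rich RNA and enter the granules, YBX1 is a cold-shock domain protein that packages mRNA, and LARP1 controls translation of the mRNAs that encode ribosomal proteins. MSI2 itself binds mRNA and regulates its translation, and the transcripts below are those of other RNA-binding proteins.

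Each peak carries a whole number, called its tally, of 3 or more, which was treated as read-like although no header or label explains it. The 10 genes held 80 of 25920 peaks in replicate 1, with a summed tally of 588, and 68 of 25243 peaks in replicate 2, with a summed tally of 454. Median tallies were 6 for these genes in replicate 1 and 5 in replicate 2, beside 4 over all peaks of either list. Median widths were 44 and 40 nt, beside 42 and 39 nt over all peaks. The total reads of each library are not known from the files, so tallies show what was called as peaks and not depth.

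A peak counts as shared here where the other list has a peak on the same strand that covers at least 1 nt of it. Shared peaks were found in 7 of the 10 genes, namely G3BP1, G3BP2, CAPRIN1, FXR1, TIAL1, YBX1 and LARP1, beside 45.3% of the 8801 gene IDs. These 7 genes had from 3 peaks (YBX1, replicate 2) to 18 (G3BP1) in a list, beside a median of 2 per gene ID in each list. Sharing among genes with like numbers of peaks was not tested. Peaks in both lists, shared or not, were present in 8 of the 10 genes, the 7 and TIA1, beside 63.1% of all gene IDs. FMR1, FXR2 and TIA1 had no shared peak. In replicate 1, 35 of the 80 peaks were shared, or 43.8% (95% Wilson interval 33.4% to 54.7%), beside 35.7% of all peaks. In replicate 2, 36 of the 68 were shared, or 52.9% (41.2% to 64.3%), beside 37.3% of all peaks. The interval of replicate 1 includes the share of all peaks and that of replicate 2 lies above it. Without G3BP1 25 of 50 peaks of replicate 2 were shared (36.6% to 63.4%), an interval that includes the share of all peaks. These intervals cover counting error only, as peaks of 1 gene are not independent.

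**Figure D1:**
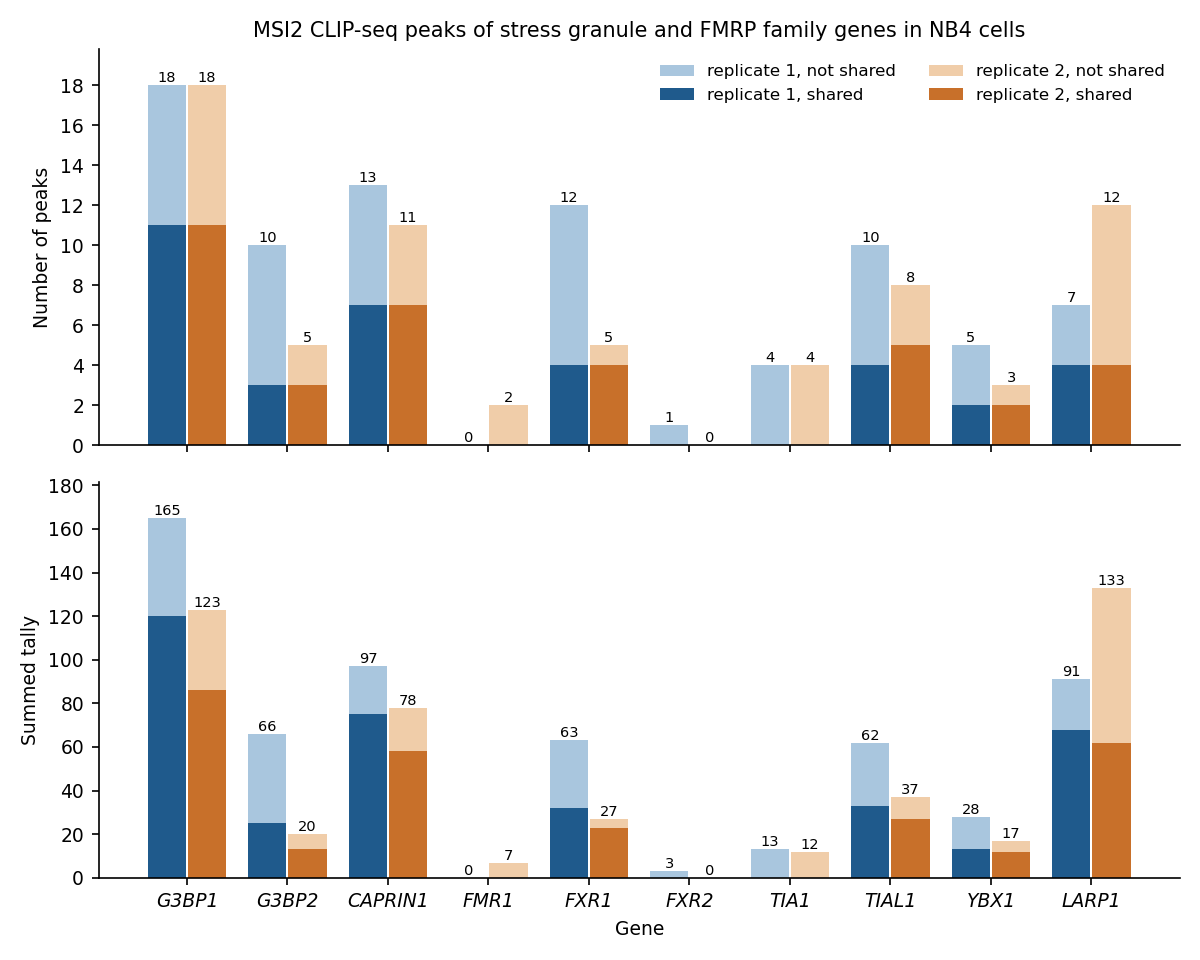
Number of peaks (upper panel) and summed tally (lower panel) for each of the 10 genes, with replicate 1 in blue and replicate 2 in orange; the dark part of each bar is shared with the other replicate and the number above it is the total. G3BP1 has 18 peaks in each replicate, whereas FMR1, FXR2 and TIA1 have no dark part.

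The granule scaffold G3BP1 (ENSG00000145907) carried the most peaks of the 10 genes. It had 18 peaks with a summed tally of 165 in replicate 1, and 18 peaks with a summed tally of 123 in replicate 2. Its summed tally ranked 47 of 7252 gene IDs in replicate 1 and 82 of 7101 in replicate 2. In each list 11 of the 18 peaks were shared, and 72.7% and 69.9% of the gene's tally lay in them. Over all peaks, shared ones held 54.3% of the tally in replicate 1 and 54.1% in replicate 2. By the number of shared peaks G3BP1 ranked 28 among gene IDs.

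Nearly all G3BP1 signal sat in a stretch of 7.36 kb, from 151183518 to 151190878 of chromosome 5 on the plus strand (hg19, as all positions here). That stretch held 15 peaks in replicate 1 and 16 in replicate 2, with 10 shared in each list, and 92.7% of the gene's tally in both. The strongest site closed it at the 3' end, at 151190746 to 151190878 in replicate 1 with a tally of 26 and at 151190779 to 151190877 in replicate 2 with a tally of 24. These tallies exceeded those of 98.6% and 98.8% of the peaks in their lists. The inner intervals that the authors' lists give for this pair were centred 61 nt apart, the widest separation among the pairs of the 10 genes, so the overlap of 99 nt was long while the centres stood apart.

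Inside the G3BP1 stretch, other shared sites followed one another at short distances. A site at 151186064 to 151186134 had a tally of 15 in replicate 1 and 7 in replicate 2, with inner intervals centred on the same position. One at 151186920 to 151186980 had tallies of 13 and 10. A site at 151184490 to 151184547 had 11 and 8. Sites at 151183849 to 151183911 and 151186296 to 151186344 each had 10 in replicate 1, against which replicate 2 listed 5 and 6. Of the 11 shared G3BP1 pairs, 9 had a higher tally in replicate 1, 1 was equal and 1 was lower. A single shared site lay far upstream of the stretch, at 151176804 to 151176844, 14.1 kb from the 3' end of the gene's peaks, with tallies of 6 and 5.

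The G3BP1 stretch also held strong peaks that did not recur. A replicate 1 peak at 151189144 to 151189277, with a tally of 12, ended 2 nt short of the nearest replicate 2 peak, at 151189280 to 151189319 with a tally of 4. A replicate 1 peak with a tally of 11 at 151184289 to 151184352 lay 143 nt from the nearest peak of replicate 2. A replicate 2 peak with a tally of 10 at 151183518 to 151183610 lay 238 nt from the nearest peak of replicate 1. Strict overlap therefore counts as unshared a site on which both lists have peaks 2 nt apart.

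The paralog G3BP2 (ENSG00000138757) had fewer peaks than G3BP1 in both lists, and its lists differed more. It had 10 peaks with a summed tally of 66 in replicate 1, and 5 peaks with a summed tally of 20 in replicate 2. The tally ratio of replicate 1 over replicate 2 was 3.30, beside 1.16 for the summed tallies of the whole lists and 1.34 for G3BP1. How this ratio varies among all gene IDs is not given here. Of the G3BP2 peaks, 3 were shared in each list, all on the minus strand of chromosome 4. The strongest, at 76570006 to 76570099, had a tally of 12 in replicate 1 and 4 in replicate 2. The other shared sites, at 76568116 to 76568172 and 76572284 to 76572342, had tallies of 6 and 7 in replicate 1 and of 5 and 4 in replicate 2. As in G3BP1 the peaks were gathered at the 3' side: a stretch of 5.77 kb held 9 of 10 peaks in replicate 1 and 4 of 5 in replicate 2.

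CAPRIN1 (ENSG00000135387), the partner of the G3BP proteins, had 13 peaks with a summed tally of 97 in replicate 1, and 11 peaks with a summed tally of 78 in replicate 2. In each list 7 of its peaks were shared, which put it at rank 127 among gene IDs by shared peaks. These held 77.3% and 74.4% of the CAPRIN1 tally, beside 54.3% and 54.1% over all peaks. The CAPRIN1 sites formed separate groups on the plus strand of chromosome 11. The group at the 3' end covered 1.22 kb and held 48.5% of the gene's tally in replicate 1 and 56.4% in replicate 2. The strongest site of that group lay at 34121956 to 34122017, with a tally of 23 in replicate 1 and 14 in replicate 2, and its neighbour at 34121620 to 34121695 had 15 and 10. A second strong site, at 34118120 to 34118190, had a tally of 14 in replicate 1 and 19 in replicate 2 and overlapped its partner by 70 nt. It lay 4.17 kb from the 3' end of the gene's peaks and was the sole CAPRIN1 pair with the higher tally in replicate 2. Weak peaks could recur as well: a site at 34112161 to 34112173 had the lowest possible tally, 3, in both lists.

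LARP1 (ENSG00000155506) held the highest tally among the 10 genes in replicate 1, while the highest in replicate 2 was the 24 of G3BP1. The gene had 7 peaks with a summed tally of 91 in replicate 1, and 12 peaks with a summed tally of 133 in replicate 2. The strongest LARP1 site lay at 154196123 to 154196238 of chromosome 5 on the plus strand, with a tally of 35 in replicate 1, where 99.5% of all peaks had a lower tally. Its partner at 154196143 to 154196226 had a tally of 21 in replicate 2, above 98.2% of that list. A site at 154195307 to 154195348 had tallies of 15 in replicate 1 and 19 in replicate 2, and one at 154194823 to 154194871 had 12 and 11. These sites lay in a stretch of 3.01 kb that held 87.9% of the gene's tally in replicate 1 and 79.7% in replicate 2. The remaining shared site stood apart, at 154181902 to 154181943, 15.1 kb from the 3' end of the gene's peaks, with a tally of 6 in replicate 1 and 11 in replicate 2.

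LARP1 also differed in which list was fuller. Its tally ratio of replicate 1 over replicate 2 was 0.68, whereas the other 7 genes with peaks in both lists had ratios between 1.08 for TIA1 and 3.30 for G3BP2. Replicate 2 listed LARP1 peaks with tallies of 18 at 154195422 to 154195487 and 14 at 154196249 to 154196324 that replicate 1 did not overlap. They lay 73 and 10 nt from the nearest replicate 1 peak. In return, a replicate 1 peak at 154196961 to 154197017, with a tally of 12, lay 636 nt from the nearest replicate 2 peak. Of the LARP1 tally, 74.7% lay in shared peaks in replicate 1 and 46.6% in replicate 2, beside 54.3% and 54.1% over all peaks. Each list is a single library, so this difference between libraries has no further replicate.

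Within the fragile X family, FXR1 was the one member with shared peaks. FXR1 (ENSG00000114416) had 12 peaks with a summed tally of 63 in replicate 1, and 5 peaks with a summed tally of 27 in replicate 2. Replicate 1 overlapped 4 of the 5 replicate 2 peaks, and 4 of its own 12 were overlapped. The strongest FXR1 site lay at 180688023 to 180688098 of chromosome 3 on the plus strand, with a tally of 12 in replicate 1 and 10 in replicate 2, and its partner started at 180688007. Sites at 180689422 to 180689475 and 180689541 to 180689612 followed, with tallies of 5 and 8 in replicate 1 and 3 and 4 in replicate 2. The last shared site, at 180694563 to 180694606, had tallies of 7 and 6. In replicate 1 the shared FXR1 peaks lay a median of 5.23 kb from the 3' end of the gene's peaks, beside 4.78 kb for the shared peaks of G3BP1.

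FMR1 (ENSG00000102081) and FXR2 (ENSG00000129245) were each listed in 1 replicate. FMR1 had no listed peak in replicate 1. In replicate 2 it had 2 weak peaks, on the plus strand of chromosome X, at 146994273 to 146994321 with a tally of 3 and at 147024674 to 147024699 with a tally of 4. FXR2 had 1 peak in replicate 1, at 7495220 to 7495248 of chromosome 17 on the minus strand with a tally of 3, and none in replicate 2. Most peaks this weak were unshared: over all peaks, 11.9% with a tally of 3 were shared in replicate 1. In replicate 2, 15.5% with a tally of 3 and 34.7% with a tally of 4 were. The lists hold no peak with a tally under 3, so weaker signal in these genes is not visible here, and a missing peak does not show that MSI2 was absent.

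In the TIA pair, TIAL1 had shared peaks and TIA1, with fewer and weaker peaks, had none. TIAL1 (ENSG00000151923), whose protein is often called TIAR, had 10 peaks with a summed tally of 62 in replicate 1, and 8 peaks with a summed tally of 37 in replicate 2. In replicate 1, 4 of its peaks were shared, and in replicate 2, 5 were, because a replicate 1 peak at 121339473 to 121339524 spanned a pair of replicate 2 peaks that touched end to end. The strongest TIAL1 site lay at 121335045 to 121335185 of chromosome 10 on the minus strand, at the 3' end of the gene's peaks, with a tally of 15 in replicate 1 and 8 in replicate 2. A site at 121337200 to 121337243 had 5 and 8. At the far 5' end, 20.9 kb away, peaks with a tally of 5 in each list overlapped by 5 nt, the shortest overlap among the pairs, with inner intervals centred 35 nt apart.

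TIA1 (ENSG00000116001) had 4 peaks in each list, with summed tallies of 13 in replicate 1 and 12 in replicate 2, and none overlapped. Their tallies were 3 or 4 in replicate 1 and 3 in every replicate 2 peak. Of all replicate 1 peaks, 11.9% of those with a tally of 3 and 24.7% of those with 4 were shared. Of all replicate 2 peaks with a tally of 3, 15.5% were. The closest approach between the lists was 168 nt. All 8 TIA1 peaks were listed a second time, at the same intervals and with the same tallies, under ENSG00000115998, which had no other peak. They therefore cannot be assigned to TIA1 alone. Intervals under more than 1 gene ID made up 5.11% of all peaks in replicate 1 and 6.04% in replicate 2, and no other gene of the 10 had any.

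YBX1 (ENSG00000065978) had 5 peaks with a summed tally of 28 in replicate 1, and 3 peaks with a summed tally of 17 in replicate 2. It had 2 shared sites on the plus strand of chromosome 1. The stronger lay at 43166450 to 43166474, with a tally of 8 in replicate 1 and 7 in replicate 2, and its inner intervals were centred 1 nt apart. The other started at 43167701 in both lists and had a tally of 5 in each. No YBX1 peak reached a tally of 10 in either list. Both sites lay within 5 kb of the 3' end of the gene's peaks.

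Across the 10 genes, 36 pairs of overlapping peaks were formed, all under the same gene ID in both lists. The tally was higher in replicate 1 in 26 pairs, equal in 5 and lower in 5, and the median ratio of replicate 1 over replicate 2 was 1.34. Over the 9528 pairs of all genes under the same ID, 56.2% were higher in replicate 1 and the median ratio was 1.20. Tallies of the 36 pairs correlated between lists with a Spearman rho of 0.62, beside 0.60 over all pairs. This is a description across sites of 7 genes that share their libraries. The median overlap was 41.5 nt and the median distance between inner centres 8 nt, beside 38 and 7 nt over all pairs.

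**Figure D2:**
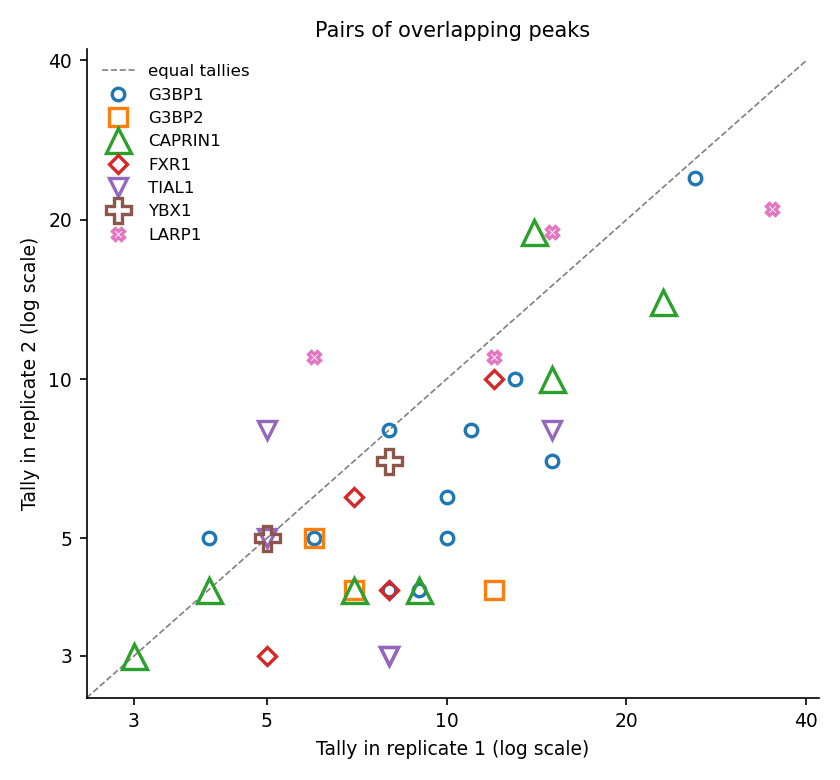
Tally in replicate 2 against tally in replicate 1 (both log scales) for the 36 pairs of overlapping peaks, by gene; the dashed line marks equal tallies and some symbols coincide. The G3BP1 pair at 26 and 24 and the LARP1 pair at 35 and 21 lie at the upper right, and 26 pairs lie below the line.

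Sharing followed tally in these genes much as in the lists as a whole. With a tally of 10 or more, 15 of 18 peaks were shared in replicate 1 and 10 of 13 in replicate 2, or 83.3% (95% Wilson interval 60.8% to 94.2%) and 76.9% (49.7% to 91.8%), beside 87.1% and 89.4% of all such peaks. With a tally of 5 to 9 the shares were 47.2% and 58.3%, beside 47.6% and 57.4%. With a tally of 3, 1 of 17 and 4 of 12 peaks were shared, beside 11.9% and 15.5%. In every class and both lists the interval of the 10 genes included the share of all peaks. The make-up of the lists differed: peaks with a tally of 3 were 21.3% of those of the 10 genes in replicate 1 and 17.6% in replicate 2, beside 35.7% and 45.3% of all peaks.

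**Figure D3:**
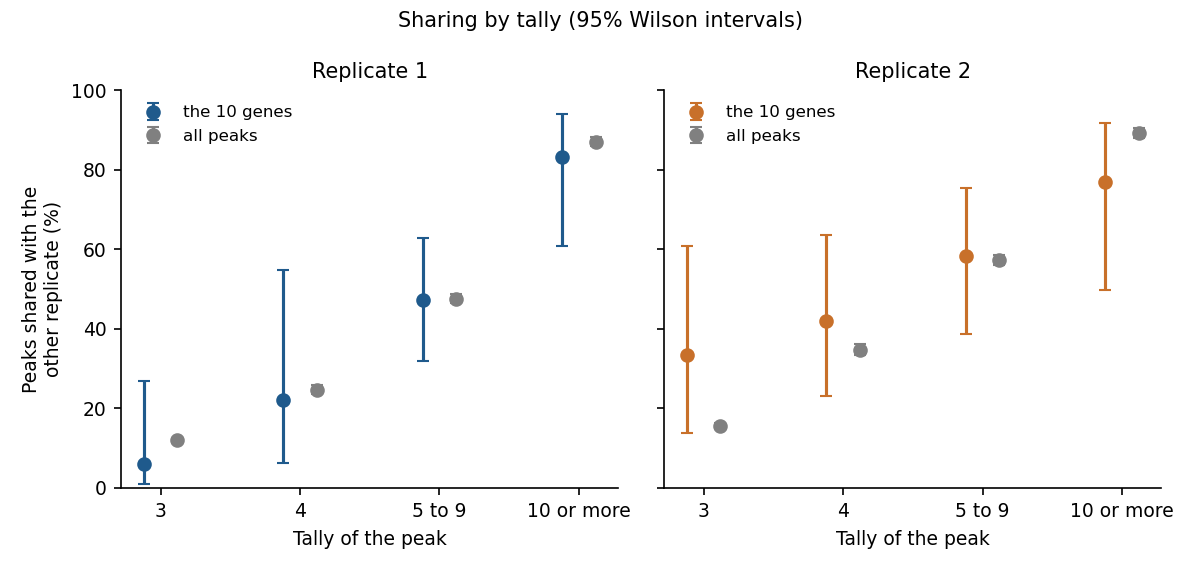
Percentage of peaks shared with the other replicate by tally class, for the 10 genes (coloured) and all peaks (grey), with 95% Wilson intervals; replicate 1 is on the left and replicate 2 on the right. The shares rise with tally and each coloured interval includes its grey point.

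Shared peaks lay toward the 3' side of the spans. Position was measured from 0 at the 5'-most to 1 at the 3'-most base of a gene's peaks in either list, for genes with a span of at least 10 kb. The median over the 35 shared replicate 1 peaks of the 7 genes was 0.83, beside 0.93 over 5623 shared peaks of all such genes. Of the 35, 12 (34.3%) fell in the 3'-most 10%, beside 54.6% of all. The median distance of the 35 from the 3' end of the gene's peaks was 4.17 kb, beside 2.40 kb over all. Within 5 kb of that end lay 23 (65.7%), beside 61.9% of all. G3BP1 alone supplied 11 of the 35, and without it the median position was 0.88. The gene medians of shared replicate 1 peaks ran from 0.80 in FXR1 and G3BP1 to 0.97 in YBX1. Unshared peaks of the 10 genes did not lie to one side of the shared ones in both lists. Their median was 0.78 in replicate 1, and in replicate 2 it was 0.90, where shared peaks had 0.83. Over all such genes unshared peaks lay 5' of shared ones in both lists. Those medians were 0.77 for unshared and 0.93 for shared peaks in replicate 1, and 0.70 and 0.93 in replicate 2. For the 10 genes, 5 of 44 unshared peaks in replicate 1 (11.4%) and 6 of 32 in replicate 2 (18.8%) lay in the 5'-most 10% of the spans. For all genes 19.96% and 22.60% of the unshared peaks lay there. Of the shared peaks of the 10 genes, 1 lay there in each list, that of TIAL1 (2.86% and 2.78%). For all genes it was 9.53% and 9.78% of the shared peaks. The spans are set by the peaks, so each gene has a peak at each end of its span by construction. Fewer peaks per gene thus put a larger share of them at the ends. In replicate 1 these spans held 79 peaks in 8 of the 10 genes, beside 16575 peaks in 3089 of all gene IDs. Shared peaks numbered 35 in 7 genes, beside 5623 in 2018. Medians and end shares were not adjusted for this, so their differences cannot be read as differences in site placement. The spans also include introns and are not annotated genes, so no site here is placed in an exon, an intron or an untranslated region.

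Peak names carry a running number within each gene that followed position in all 7252 and 7101 gene IDs, and some numbers had no peak in the lists. Within these genes 5 numbers were missing in replicate 1 (5.88%) and 9 in replicate 2 (11.7%), beside 8.77% and 9.52% over all gene IDs. The other list had a peak in the gap around 2 of the 5 missing numbers of replicate 1 and 8 of the 9 of replicate 2, where pairs of G3BP1 numbers shared a gap, and the same count over all gene IDs was not made. No header or label says what the missing numbers stand for.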

How the data were processed

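The data are 2 peak lists, 1 per library, as deposited by the authors. The submitters' processing notes name Bowtie 1.0.0, STAR 2.3.0e, cutadapt and build hg19; which program called the peaks was not given in these sources. The authors' deposited p-value, under 0.05 for all peaks, served only to rank peaks within a list. Starts were taken as 0-based and are printed 1-based. Members and lists were chosen with earlier results of these data known. Named sites were shared peaks with a tally of 10 or more in either list, or a gene's strongest shared peak; other sites were named after their values were seen, as were the 5 kb distance, the tally classes and the stretches (gaps up to 2 kb). Gene names come from the rule for the 10 IDs. Lists of related genes and of cell type markers could not be matched to gene IDs and were not analysed here, so the NB4 label was not checked against markers. No hg19 sequence was used. The overlap search was tested on simulated data and gave the counts of bedtools 2.31.1. There is no comparison between conditions and no test. Software was Python 3.11.15 with pandas 2.3.3, NumPy 2.4.6, matplotlib 3.10.9 and SciPy 1.17.1.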

Additional observations from a re-analysis of the deposited data

How the results depend on the processing

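Of 37 recomputed values for 5 results, 26 stayed within the main value's Wilson interval, within 1.5 times a count, or within the spread between replicates of a position, and 11 moved. For positions that spread was a standard deviation of 0.00225 over 2 values. Such a spread lies below the difference of the 2 values, so the replicate 2 position had to count as moved. Small shifts in position therefore count as moved as well. No paired analysis was possible because there is 1 group. The number of genes with a shared peak was 7 in 6 of 7 alternatives and 8 with each peak extended by 100 nt, a looser rule. That extension raised the shares to 65.0% in replicate 1 and 75.0% in replicate 2, and a reciprocal overlap of 50% lowered the replicate 2 share to 41.2%. The shares of all peaks under these rules are not given here. These values therefore cannot be set beside the shares of all peaks above, which belong to the 1 nt rule. Peaks per replicate averaged 74, ranged from 68 to 80 with 1 replicate left out, and fell to 45.5 with a tally of 5 or more. The median position was 0.830 from replicate 2, 0.821 over all replicate 1 peaks, 0.863 with reciprocal overlap, 0.830 with midpoints within 50 nt, 0.861 with extension, 0.816 without peaks that set a span's end and 0.882 without G3BP1. Leaving out G3BP1, peaks under another gene ID, or peaks that set a span's end was chosen after seeing the data. Depth per library is unknown, and a tally of 3, if it is read-like, leaves a peak resting on very little signal.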
